A study of Mus musculus with 16 samples.

Results

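The clustered protocadherins of the mouse are 3 tandem gene groups, Pcdha, Pcdhb and Pcdhg, that lie side by side on chromosome 18. They were taken as the protein-coding genes of build mm10 between 36.9 and 37.9 Mb whose symbol begins with one of those 3 names. This gave 57 of 21887 protein-coding genes, 14 in Pcdha (chr18:36930285-37188897), 22 in Pcdhb (chr18:37264998-37521419) and 21 in Pcdhg (chr18:37661775-37841873). They were chosen by measured values, namely peaks of these same lists already known to differ here, so every count over the 57 genes is a description and none is a test. The data are ChIP-seq peak lists from mouse embryonic stem cells of the CJ9 line that had been differentiated for 5 days toward endoderm or mesoderm. Wild-type cells (WT) stand beside cells labelled arid4b∆, written arid4b-delta here, which carry a deletion in the gene for Arid4b, a protein of the Sin3 histone deacetylase corepressor. The labels do not say which bases are deleted or how many clones were used, and no other allele or agent is named. H3K4me3, H3K27me3 and H3K27ac were each profiled in the 4 combinations of genotype and lineage with 1 library per group, which gives 12 lists and no replicate error.

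Clustered protocadherins are cell adhesion proteins best known from neurons, where each cell expresses a small, largely random choice of them and so carries its own surface identity. Every gene of Pcdha and Pcdhg begins with its own promoter and a long variable exon, which encodes the extracellular part, and is spliced to constant exons shared by the group. Pcdhb genes lack those shared exons. Promoter choice is known to depend on DNA methylation, on the insulator protein CTCF with cohesin, and on distant enhancers. The C-type genes at the end of Pcdha and Pcdhg (Pcdhac1, Pcdhac2, Pcdhgc3, Pcdhgc4 and Pcdhgc5) are expressed in a less random way. H3K4me3 is a mark of active or poised promoters, H3K27ac of active promoters and enhancers, and H3K27me3 of Polycomb repression. H3K4me3 and H3K27me3 found together are called bivalent and are typical of silent developmental genes in stem cells.

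A gene counted as marked if at least 1 bp of a peak fell within 1000 bp of one of its ends. The gene table gives no strand, so the lower coordinate was taken as the start end. This assumption rests on the upper ends that Pcdha and Pcdhg genes share and on where H3K4me3 lay, and for Pcdhb no shared end bears on it. The upper end is common to the group in Pcdha, where the 14 ends lie within 1240 bp, and in Pcdhg, where the 21 ends lie within 10 bp. No list had a peak at those common ends, so every marked Pcdha and Pcdhg gene was marked at its own start. The fold given with a peak is the authors' enrichment over background and ranks peaks within a list only. Where a gene had several peaks near its start, values are those of the peak of highest fold. Lists held 6150 to 35884 peaks, and for each of the 3 marks arid4b-delta had more peaks than WT in both lineages. Counts were therefore repeated in lists of equal length, where the longer list keeps only its highest peaks by fold, as many as the shorter list holds. Sequencing depth cannot be read from a peak list, and its part in the differences was not tested.

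H3K4me3 was found at more of these genes in arid4b-delta than in WT in both lineages. In endoderm it marked 11 of 57 genes in WT (19.3%) and 27 in arid4b-delta (47.4%), beside 53.3% and 58.6% of all protein-coding genes. In mesoderm it marked 18 in WT (31.6%) and 33 in arid4b-delta (57.9%), beside 55.9% and 59.7%. The pooled share was close to that of all genes in arid4b-delta mesoderm and lower in the other lists, but the gene groups differed. In arid4b-delta endoderm it was 57.1% of Pcdha, 4.55% of Pcdhb and 85.7% of Pcdhg. In arid4b-delta mesoderm it was 85.7%, 4.55% and 95.2%. In endoderm 16 genes were marked in arid4b-delta only, beside 5.37% of all protein-coding genes, and 0 in WT only, beside 0.101%. In mesoderm 16 were marked in arid4b-delta only, beside 3.92% of all genes, and 1 in WT only, beside 0.119%. None of the 16 genes of either lineage had a WT H3K4me3 peak anywhere in its first 2500 bp. With list lengths made equal, endoderm had 14 genes marked in the arid4b-delta list alone and 0 in the WT list alone, where the background was 4.64% and 0.201%. In mesoderm the equal-length counts were 12 and 3, where the background was 2.88% and 0.411%. Most of these peaks were weak: with the upper 50% of each list by fold, the arid4b-delta-only count was 2 in either lineage. With peaks of at least 500 bp it was 4 in endoderm and 9 in mesoderm.

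**Figure D1:**
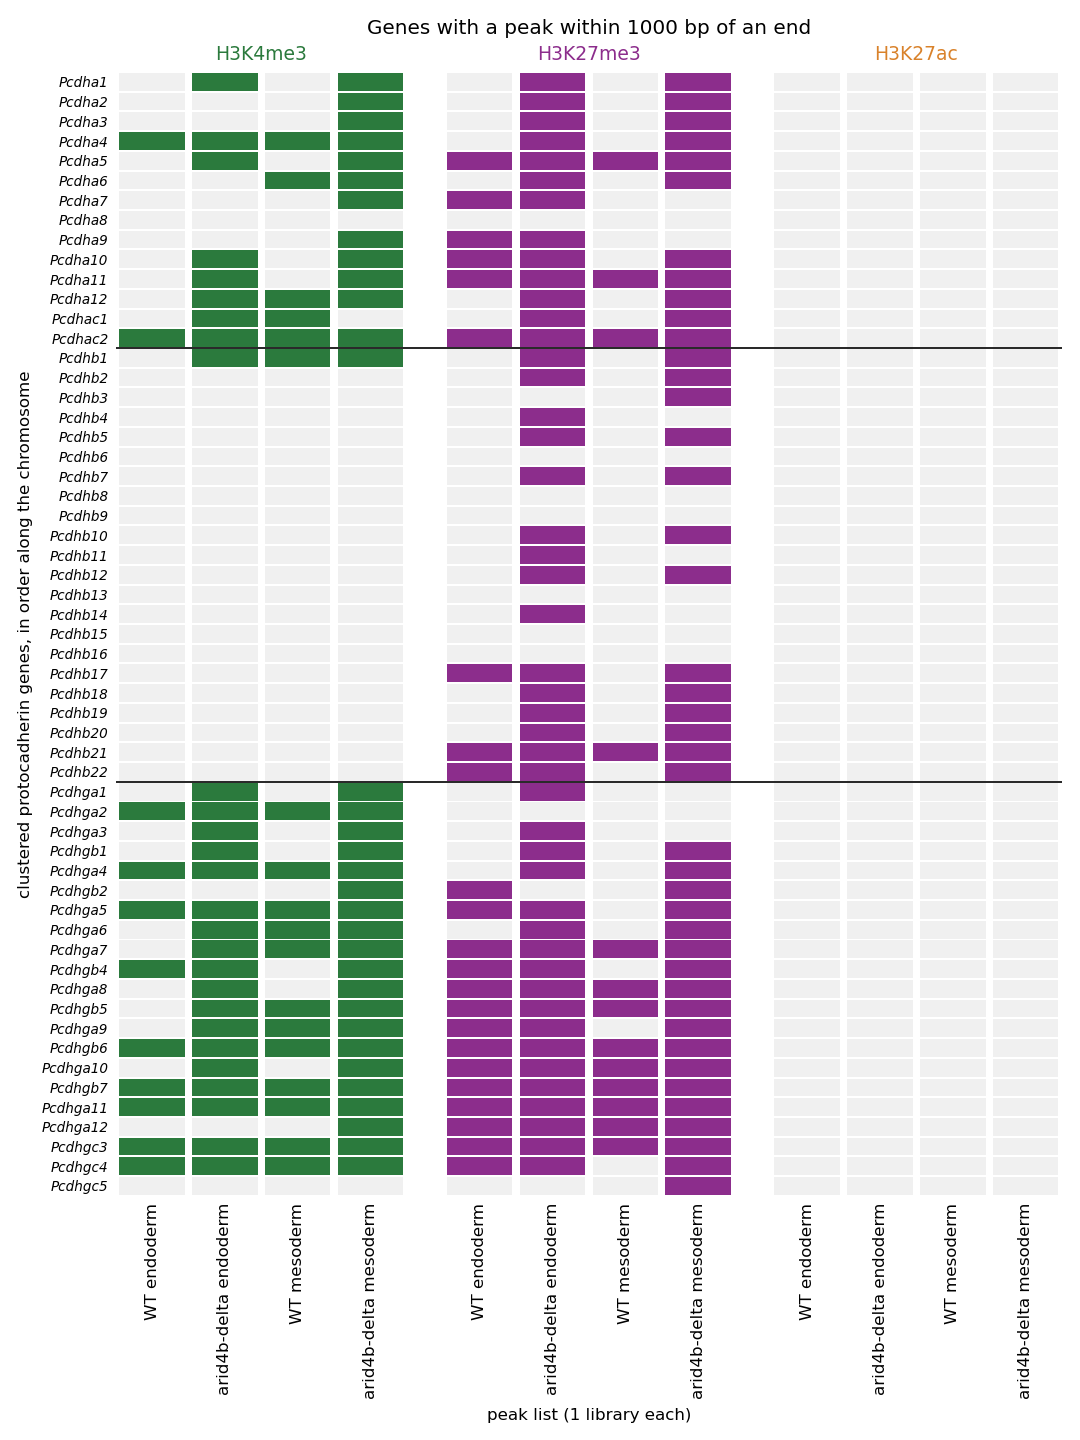
Each row is 1 of the 57 genes in chromosome order and each column 1 of the 12 peak lists, and a filled cell is a gene with a peak within 1000 bp of an end. H3K4me3 filled 11, 27, 18 and 33 cells from left to right, H3K27me3 filled 23, 46, 13 and 42, and the 4 H3K27ac columns are empty.

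In Pcdha, H3K4me3 marked 2 of 14 genes in WT endoderm, 8 in arid4b-delta endoderm, 5 in WT mesoderm and 12 in arid4b-delta mesoderm. Pcdha4 was marked in all 4 lists, at a fold of 6.26 in WT endoderm, 6.14 in arid4b-delta endoderm, 5.37 in WT mesoderm and 8.14 in arid4b-delta mesoderm. Within endoderm the 6 Pcdha genes marked in arid4b-delta only were Pcdha12 (fold 11.0), Pcdha5 (7.81), Pcdha11 (7.57), Pcdha10 (6.96), Pcdhac1 (5.45) and Pcdha1 (4.24). Within mesoderm they were the 8 genes Pcdha10 (7.64), Pcdha5 (7.27), Pcdha1 (5.72), Pcdha3 (5.71), Pcdha7 (5.53), Pcdha11 (4.89), Pcdha9 (4.53) and Pcdha2 (4.21). Pcdha1, Pcdha5, Pcdha10 and Pcdha11 were thus in arid4b-delta only in both lineages, 66.7% of the endoderm list and 50% of the mesoderm list. Pcdha12 had a weak peak in WT mesoderm, at 3.17, beside 7.81 in arid4b-delta mesoderm. Pcdha6 had H3K4me3 in mesoderm only, at 4.81 in WT and 4.01 in arid4b-delta. At equal length the mesoderm count of Pcdha in arid4b-delta was 8, and the Pcdha6 peak was among those left out.

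In Pcdhg, H3K4me3 marked 9 of 21 genes in WT endoderm, 18 in arid4b-delta endoderm, 12 in WT mesoderm and 20 in arid4b-delta mesoderm. Of the 21 genes, 8 were marked in all 4 lists: Pcdhga2, Pcdhga4, Pcdhga5, Pcdhgb6, Pcdhgb7, Pcdhga11, Pcdhgc3 and Pcdhgc4. Among the variable genes of that set Pcdhga11 had folds of 7.34 in WT endoderm, 11.5 in arid4b-delta endoderm, 6.39 in WT mesoderm and 10.4 in arid4b-delta mesoderm. Within endoderm the 9 Pcdhg genes in arid4b-delta only were Pcdhgb5 (fold 9.5), Pcdhga8 (6.61), Pcdhgb1, Pcdhga6 and Pcdhga7 (each 6.36), Pcdhga10 (5.74), Pcdhga1 (4.92), Pcdhga3 (4.84) and Pcdhga9 (3.69). Within mesoderm the 8 were Pcdhga10 (8.82), Pcdhga3 (8.18), Pcdhgb1 (7.56), Pcdhga8 (6.81), Pcdhga12 (6.4), Pcdhga1 (6.17), Pcdhgb2 (6.11) and Pcdhgb4 (4.28). Pcdhga1, Pcdhga3, Pcdhgb1, Pcdhga8 and Pcdhga10 were in both sets, 55.6% of the endoderm set and 62.5% of the mesoderm set. The A and B subtypes are interspersed along Pcdhg, and genes of both were in arid4b-delta only. Across the 3 groups 9 genes were in arid4b-delta only in both lineages. These recurrence counts are from full lists, and the same share over all protein-coding genes was not computed.

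In Pcdhb, H3K4me3 was almost absent: 21 of the 22 genes had no H3K4me3 peak at either end in any list. The exception was Pcdhb1, at chr18:37264998-37267454, the gene next to Pcdha. Its peak was absent from WT endoderm and had a fold of 6.36 in arid4b-delta endoderm, 4.1 in WT mesoderm and 4.62 in arid4b-delta mesoderm. The arid4b-delta mesoderm peak was lost when the lists were made equal in length, which left Pcdhb1 marked in WT only there.

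Where H3K4me3 was found it sat just past the end taken as the start, a choice that its position had helped to make. The median distance from the start to the peak summit was 118 bp in WT endoderm, 121.5 bp in arid4b-delta endoderm, 206.5 bp in WT mesoderm and 142.5 bp in arid4b-delta mesoderm over the marked Pcdhg genes. Over the marked Pcdha genes it was 132.5, 162, 191 and 221 bp in the same order, and 1 summit of all those measured, in WT mesoderm, lay before the start. The peaks were short, with a median length of 219 bp in WT endoderm, 405 bp in arid4b-delta endoderm, 236.5 bp in WT mesoderm and 430 bp in arid4b-delta mesoderm. They stood low in their own lists, at a median percentile of fold of 21.7, 30.0, 18.6 and 37.1 in the same order. Several genes shared the same values: Pcdhb1, Pcdhgb1, Pcdhga6 and Pcdhga7 all had a fold of 6.36 and a -log10 q of 10.7 in arid4b-delta endoderm. In WT mesoderm Pcdha6, Pcdhga5, Pcdhga6 and Pcdhgb6 all had 4.81 and 6.34.

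H3K27me3 was also found at more of these genes in arid4b-delta. It marked 23 of 57 genes in WT endoderm (40.4%), 46 in arid4b-delta endoderm (80.7%), 13 in WT mesoderm (22.8%) and 42 in arid4b-delta mesoderm (73.7%). Over all protein-coding genes the shares were 14.4%, 17.2%, 9.34% and 16.3% in that order. In endoderm 24 genes were in arid4b-delta only, beside 4.89% of all protein-coding genes, and 1 in WT only, beside 2.05%. In mesoderm 29 were in arid4b-delta only, beside 7.68%, and 0 in WT only, beside 0.726%. The 3 gene groups differed in how this held when the lists were made equal in length. Pcdha then had 6 genes in WT and 11 in arid4b-delta in endoderm, and 3 and 9 in mesoderm. Pcdhb had 3 and 12 in endoderm, and 1 and 10 in mesoderm. Pcdhg turned round in endoderm, with 14 in WT and 10 in arid4b-delta, and was level in mesoderm, with 9 in either. Over all 57 genes the equal-length counts in endoderm were 20 for arid4b-delta only and 10 for WT only, beside 3.22% and 5.51% of all genes. In mesoderm they were 21 and 6, beside 4.96% and 3.15%. With all 4 H3K27me3 lists cut to the shortest, 12 genes of endoderm were in arid4b-delta only against 14 in WT only, beside 2.93% and 5.48% of all genes.

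**Figure D2:**
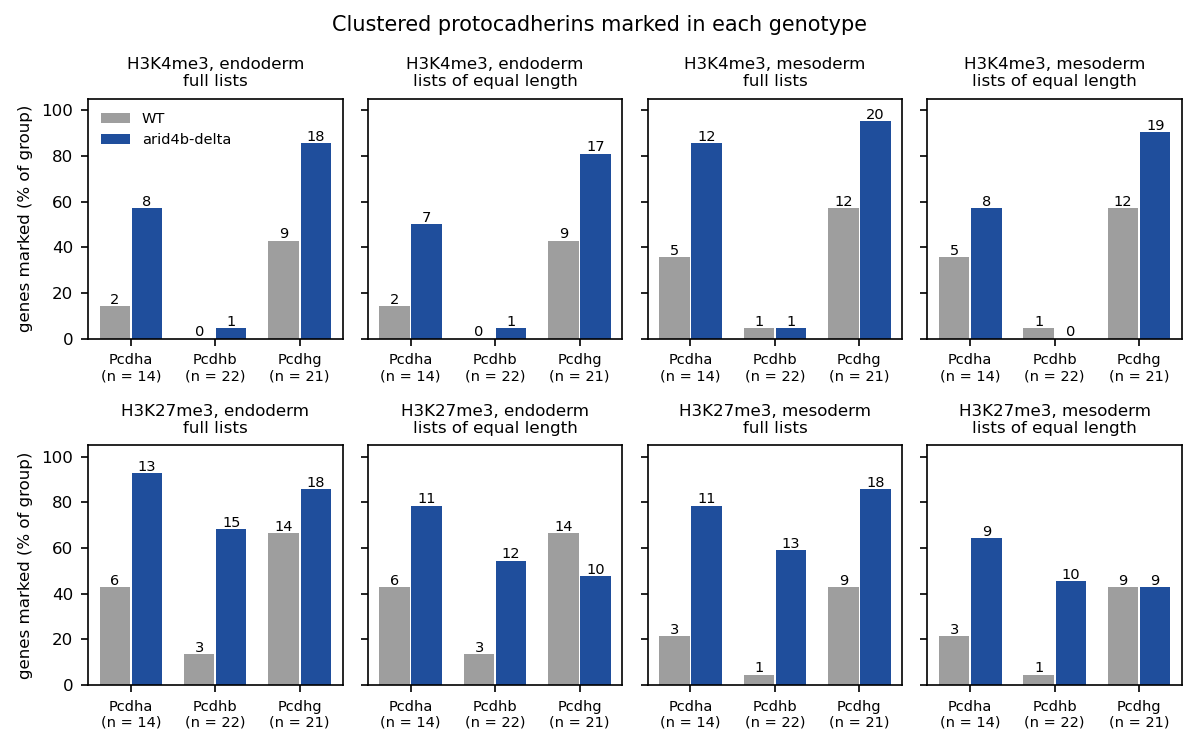
Bars give the percentage of each gene group with a peak within 1000 bp of an end in WT (grey) and arid4b-delta (blue), with the number of genes above each bar, for full lists and for lists of equal length. For H3K27me3 the blue bar is the taller one in Pcdha and Pcdhb in all panels, whereas in Pcdhg it is 10 against 14 in endoderm and 9 against 9 in mesoderm once lists are of equal length.

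In Pcdha, H3K27me3 marked 6 of 14 genes in WT endoderm, 13 in arid4b-delta endoderm, 3 in WT mesoderm and 11 in arid4b-delta mesoderm. Pcdha1, Pcdha2, Pcdha3, Pcdha4, Pcdha6, Pcdha12 and Pcdhac1 were in arid4b-delta only in both lineages, which is 100% of the endoderm set and 87.5% of the mesoderm set. Pcdha10 joined them in mesoderm alone. How often all protein-coding genes had H3K27me3 in arid4b-delta only in both lineages was not computed. Their folds ran from 1.55 at Pcdha4 to 2.87 at Pcdha12 in endoderm, and from 1.8 at Pcdha1 to 3.24 at Pcdha10 in mesoderm. Pcdha5 and Pcdha11 were marked in all 4 lists. At Pcdha11 the peak had a fold of 1.81 and a length of 716 bp in WT endoderm, and 3.59 and 3708 bp in arid4b-delta endoderm. In mesoderm it had 2.17 and 146 bp in WT, and 2.29 and 2226 bp in arid4b-delta. Pcdha7 and Pcdha9 were marked in endoderm of both genotypes and in mesoderm of neither, and Pcdha7 had the highest fold of the group in WT endoderm, 2.77. For Pcdha9 this turned on the 1000 bp limit. Its arid4b-delta mesoderm peak, with a fold of 3.13, lay 1113 bp from the start. Pcdha8 was the 1 gene of the group with no peak of any mark within 1000 bp of an end.

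In Pcdhb, H3K27me3 marked 3 of 22 genes in WT endoderm, 15 in arid4b-delta endoderm, 1 in WT mesoderm and 13 in arid4b-delta mesoderm. Pcdhb21 was marked in all 4 lists, each time at its far end only, with folds of 2.49, 1.83, 2.29 and 2.3 in the order given. The genes in arid4b-delta only numbered 12 in either lineage. In both lineages 9 genes were in that set, again without a share over all genes: Pcdhb1, Pcdhb2, Pcdhb5, Pcdhb7, Pcdhb10, Pcdhb12, Pcdhb18, Pcdhb19 and Pcdhb20. The others were Pcdhb4, Pcdhb11 and Pcdhb14 in endoderm, and Pcdhb3, Pcdhb17 and Pcdhb22 in mesoderm. Folds in endoderm ran from 1.62 at Pcdhb20 to 3.76 at Pcdhb11, and in mesoderm from 1.8 at Pcdhb22 to 3.91 at Pcdhb1. At Pcdhb2, Pcdhb10, Pcdhb12, Pcdhb14 and Pcdhb20 the endoderm peak lay at the far end of the gene alone. Pcdhb genes are short, with a median length of 3417.5 bp, so their ends lie close together. With the start end only, H3K27me3 marked 21 of all 57 genes in WT endoderm and 40 in arid4b-delta endoderm. In mesoderm it then marked 12 in WT and 40 in arid4b-delta. Pcdhb6, Pcdhb8, Pcdhb9, Pcdhb13, Pcdhb15 and Pcdhb16 had no peak of any mark within 1000 bp of an end, which with Pcdha8 makes 7 of the 57 genes. Pcdhb13 did have H3K27me3 further inside, at chr18:37443864-37444873, with folds of 3.39 in arid4b-delta endoderm and 2.51 in arid4b-delta mesoderm.

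In Pcdhg, H3K27me3 marked 14 of 21 genes in WT endoderm, 18 in arid4b-delta endoderm, 9 in WT mesoderm and 18 in arid4b-delta mesoderm. The genes toward the constant exons, from Pcdhga7 to Pcdhga12, were marked in WT endoderm without a gap. Pcdhga9 had the highest fold there, 3.96 over 1781 bp, and Pcdhgb6 and Pcdhga10 shared 1 peak of 8311 bp. In arid4b-delta endoderm Pcdhga9 had 2.11 over 4812 bp. Of this stretch in endoderm, Pcdhga7 alone had the higher fold in arid4b-delta. It had 1.96 over 1009 bp in WT and 2.06 over 2931 bp in arid4b-delta. Pcdhgb5 had 3.05 in WT endoderm and 1.72 in arid4b-delta endoderm, and Pcdhga8 2.27 and 1.5. Pcdhga12 had 1.75 and 1.69 in endoderm, but 1.75 in WT mesoderm and 2.57 in arid4b-delta mesoderm. Folds rank peaks within a list only, so these are values side by side. A peak of 16766 bp with a fold of 1.83 lay at the starts of Pcdhgb6, Pcdhga10, Pcdhgb7 and Pcdhga11 in arid4b-delta mesoderm. The median peak length over marked Pcdhg genes was 2314.5 bp in WT endoderm, 3743 bp in arid4b-delta endoderm, 1159 bp in WT mesoderm and 2775.5 bp in arid4b-delta mesoderm. The median fold was 2.24, 1.87, 2.17 and 2.09 in the same order. Within endoderm the 5 genes in arid4b-delta only were Pcdhga3 (2.62), Pcdhgb1 and Pcdhga4 (1 peak at 2.5), Pcdhga1 (1.87) and Pcdhga6 (1.75). That peak at 2.5 ended before the start of Pcdhga4, which also had a peak of its own just past its start, at 1.84. Within mesoderm there were 9: Pcdhga4 (2.85), Pcdhga9 (2.28), Pcdhgc4 (2.27), Pcdhgb4 and Pcdhga6 (each 2.16), Pcdhgb2 (2.13), Pcdhgb1 (1.92), Pcdhga5 (1.86) and Pcdhgc5 (1.55). Pcdhgb2 was the 1 gene in WT only in endoderm. Its WT peak began 911 bp from the start and the arid4b-delta peak 1051 bp from it, on either side of the 1000 bp limit. Other values near the limit were 994 bp for Pcdhb5 in arid4b-delta mesoderm, which counted, and 1113 bp for Pcdha9 in the same list, which did not.

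The share of sequence under H3K27me3 peaks gave another view that does not use gene ends. In WT endoderm the peaks covered 20.9% of the Pcdhg interval, 2.78% of Pcdha and 1.3% of Pcdhb. In arid4b-delta endoderm they covered 38%, 11.6% and 7.68%. In WT mesoderm the shares were 6.87%, 1.66% and 0.585%, and in arid4b-delta mesoderm 32.2%, 9.66% and 8.12%. Over the genome the lists covered 14.1, 21.4, 6.91 and 16.9 Mb in that order. The mean fold of the Pcdhg peaks was 2.37, 1.97, 2.2 and 2.23. In lists of equal length the Pcdhg share was 20.9% in WT and 14.4% in arid4b-delta in endoderm, and 6.87% and 14.3% in mesoderm. When the longest peaks were kept in place of those of highest fold, a ranking added after the data were seen, the arid4b-delta shares were 37.2% and 31.3%. Pcdha kept the larger share in arid4b-delta under both rankings, 8.85% and 10.6% in endoderm, and 7.44% and 9.29% in mesoderm. Pcdhb likewise had 5.8% and 7.21%, and 5.61% and 7.38%.

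H3K27me3 covered a larger share of the first 2500 bp past the starts than of the 1000 bp before them. The gene table does not place the exons. At marked Pcdhg genes the peak of highest fold near the start began at a median of 124 bp from it in WT endoderm and -728 bp in arid4b-delta endoderm. The -728 bp rests in part on that choice of peak. At Pcdhga4, Pcdhga5, Pcdhgb6, Pcdhga10 and Pcdhga12 the peak chosen in arid4b-delta endoderm ended before the start. Each of them had another peak of lower fold that lay over the start or began just past it. In mesoderm the median was 279 bp in WT and 17.5 bp in arid4b-delta. In WT endoderm H3K27me3 covered 51.5% of the first 2500 bp of the Pcdhg genes and 11.1% of the 1000 bp before their starts. In arid4b-delta endoderm these shares were 75.6% and 31.4%, in WT mesoderm 22.1% and 0.00952%, and in arid4b-delta mesoderm 71.9% and 19.8%. For Pcdha the first 2500 bp were covered to 18.6% in WT endoderm, 60.7% in arid4b-delta endoderm, 10.3% in WT mesoderm and 60.6% in arid4b-delta mesoderm. For Pcdhb the arid4b-delta shares were 31.4% in endoderm and 37.0% in mesoderm, and coverage was highest 1550 and 1850 bp from the start. H3K27me3 peaks were weak by the authors' q. Of the distinct peaks at the marked genes, 14 of 21 in WT endoderm, 23 of 43 in arid4b-delta endoderm, 12 of 13 in WT mesoderm and 18 of 39 in arid4b-delta mesoderm had a -log10 q under 2. With a -log10 q of at least 2 the marked genes were 8, 22, 1 and 22. Of the genes in arid4b-delta only, 6 of 24 in endoderm and 6 of 29 in mesoderm had a WT peak somewhere in the first 2500 bp.

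**Figure D3:**
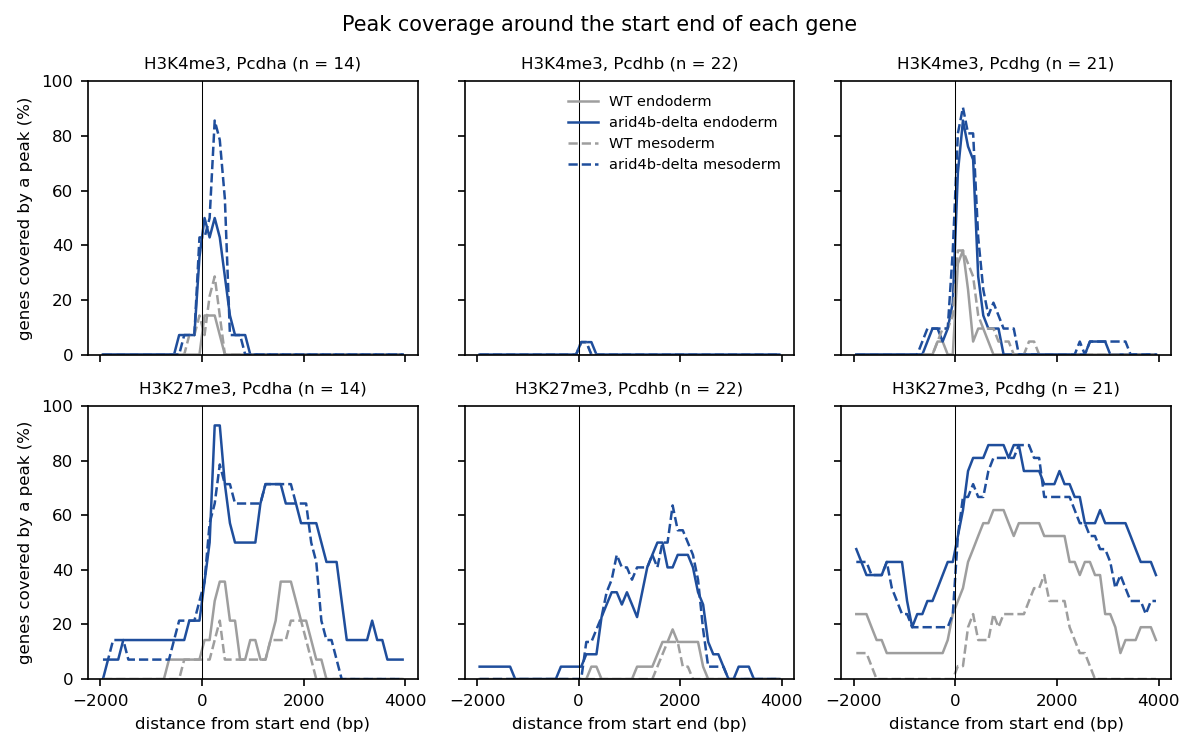
Each line gives, at distances in bp from the start end, the percentage of a group's genes covered by a peak, in WT (grey) and arid4b-delta (blue), endoderm solid and mesoderm dashed. H3K4me3 is a narrow crest just past the start in Pcdha and Pcdhg, reaching 85.7% of Pcdhg genes in arid4b-delta endoderm, and H3K27me3 is a broad shelf further in.

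H3K4me3 and H3K27me3 met at more starts in arid4b-delta in the full lists. In WT endoderm 8 of 57 starts had both, 3 had H3K4me3 alone, 13 had H3K27me3 alone and 33 had neither. In arid4b-delta endoderm 26 had both, 1 H3K4me3 alone, 14 H3K27me3 alone and 16 neither. In WT mesoderm the counts were 7, 11, 5 and 34, and in arid4b-delta mesoderm 28, 5, 12 and 12. Of these starts, 17 of the 21 in Pcdhg had both marks in arid4b-delta in either lineage, beside 7 in WT endoderm and 6 in WT mesoderm. In Pcdha both marks met at 1 start in WT of either lineage, that of Pcdhac2, and at 8 in arid4b-delta endoderm and 10 in arid4b-delta mesoderm. In Pcdhb this held for Pcdhb1 alone, in arid4b-delta. Over all protein-coding genes, taken at either end, both marks were at 10.1% in WT endoderm, 14.2% in arid4b-delta endoderm, 7.64% in WT mesoderm and 14.2% in arid4b-delta mesoderm, and the 57 genes at either end gave the same counts as at their starts. At equal list length 15 starts had both marks in arid4b-delta endoderm and 13 in arid4b-delta mesoderm, with 8 and 7 in WT as before, where all genes stood at 9.71% and 9.4% in arid4b-delta. Pcdhg then had 9 starts with both in arid4b-delta endoderm and 8 in arid4b-delta mesoderm, against the same 7 and 6 in WT, and Pcdha had 5 in arid4b-delta of either lineage. With all 4 lists of each mark cut to the shortest, 6 starts in WT and 7 in arid4b-delta had both in endoderm, and 7 and 13 in mesoderm. The peaks themselves also overlapped. H3K27me3 overlapped 6 of 12 H3K4me3 peaks at starts in WT endoderm, 24 of 28 in arid4b-delta endoderm, 4 of 20 in WT mesoderm and 27 of 36 in arid4b-delta mesoderm. This overlap was counted in full lists only, and its share over all H3K4me3 peaks was not computed. In full lists H3K27me3 peaks covered more of Pcdhg in arid4b-delta, 38% against 20.9% in endoderm and 32.2% against 6.87% in mesoderm. At equal length by fold the endoderm order turned, with 14.4% in arid4b-delta against 20.9%, and mesoderm had 14.3% against 6.87%. Each mark was in arid4b-delta only at 8 genes in endoderm, beside 0.571% of all genes (Pcdha1, Pcdha12, Pcdhac1, Pcdhb1, Pcdhga1, Pcdhga3, Pcdhgb1 and Pcdhga6). In mesoderm this held at 7, beside 0.85% (Pcdha1, Pcdha2, Pcdha3, Pcdha10, Pcdhgb1, Pcdhgb2 and Pcdhgb4). At equal list length 6 genes remained in endoderm, beside 0.356%, and 2 in mesoderm, Pcdha10 and Pcdhgb2, beside 0.388%. Pcdhga2 was the exception in Pcdhg, with H3K4me3 in all 4 lists and H3K27me3 in none. ChIP of a cell population does not show whether both marks are on the same molecule, in the same cell, or on different cells.

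The C-type genes differed among themselves. Pcdhgc3 had the highest H3K4me3 fold of Pcdhg in every list, 8.85 in WT endoderm, 20.7 in arid4b-delta endoderm, 13.1 in WT mesoderm and 16.5 in arid4b-delta mesoderm, and H3K27me3 in all 4 at 2.11, 1.67, 1.66 and 3.07. Its H3K4me3 peak was 709, 1470, 1181 and 1844 bp long. Pcdhac2 had H3K4me3 at 5.4, 13.3, 6.26 and 15.7, the highest of Pcdha in all but WT endoderm, and H3K27me3 at 1.67, 3.29, 1.99 and 3.46. Pcdhgc4 had H3K4me3 at 4.41, 6.35, 6.13 and 10.5, with H3K27me3 absent from WT mesoderm alone. Pcdhac1 had H3K4me3 in arid4b-delta endoderm (5.45) and WT mesoderm (4.93) and so was the 1 gene in WT only in mesoderm, with H3K27me3 in arid4b-delta of both lineages (2.11 and 2.87). Pcdhgc5 had no H3K4me3 within 1000 bp of an end in any list. It had 1 weak H3K27me3 peak there, in arid4b-delta mesoderm, with a fold of 1.55 and a -log10 q of 0.58. In arid4b-delta endoderm an H3K27me3 peak with a fold of 1.64 lay 1128 bp from its start, just outside the limit.

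Fewer genes differed between the lineages than between the genotypes in the full lists, and the direction depended on the mark. In WT, H3K4me3 marked 8 genes in mesoderm only (Pcdha6, Pcdha12, Pcdhac1, Pcdhb1, Pcdhga6, Pcdhga7, Pcdhgb5 and Pcdhga9), beside 3.15% of all genes, and 1 in endoderm only (Pcdhgb4), beside 0.548%. In arid4b-delta it marked 7 in mesoderm only, beside 1.48%, and 1 in endoderm only (Pcdhac1), beside 0.338%. Equal list lengths gave the same 4 counts, 8 and 1 in WT beside 3.34% and 0.544%, and 7 and 1 in arid4b-delta beside 1.29% and 0.498%. H3K27me3 went the other way in WT, with 10 genes in endoderm only, beside 6.08%, and 0 in mesoderm only, beside 1.01%. In lists of equal length these were 8 and 5, beside 3.76% and 3.34%. In arid4b-delta 7 genes had H3K27me3 in endoderm only, beside 3.31%, and 3 in mesoderm only (Pcdhb3, Pcdhgb2 and Pcdhgc5), beside 2.37%. At equal length that order turned to 6 and 17, beside 2.09% and 6.79%. Some of these genes had a peak of the other lineage just outside the 1000 bp limit. In arid4b-delta these were endoderm peaks at 1051 bp for Pcdhgb2 and 1128 bp for Pcdhgc5, and a mesoderm peak at 1113 bp for Pcdha9. The arid4b-delta difference between lineages thus had no fixed direction, and in Pcdha and Pcdhb apart it also turned under several of the alternatives.

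H3K27ac was at 0 of the 57 genes in all 4 lists. Over all protein-coding genes H3K27ac marked 26.6% in WT endoderm, 26.4% in arid4b-delta endoderm, 29.6% in WT mesoderm and 31.5% in arid4b-delta mesoderm. Of all genes, 4.7% had it in WT only and 4.49% in arid4b-delta only in endoderm, and 3.71% and 5.62% in mesoderm, beside 0 of the 57 each time. At equal list length those backgrounds were 8.38% and 2.03% in endoderm and 7.43% and 2.69% in mesoderm, again beside 0. H3K27ac peaks did lie elsewhere in the region, some inside the long Pcdha and Pcdhg genes and some at Taf7 or Diaph1, 10 in WT endoderm, 19 in arid4b-delta endoderm, 10 in WT mesoderm and 7 in arid4b-delta mesoderm over the region. At 1 site inside Pcdha, chr18:37178211-37178826, H3K27ac was present in all 4 lists, with folds of 9.4, 5.25, 5.53 and 4.92. It lies past the start of Pcdhac2 and 247.93 kb from that of Pcdha1. Inside the constant end of Pcdhg, chr18:37824193-37826941 had H3K27ac in WT only, as 3 peaks with a highest fold of 5.3 in endoderm and 4 peaks with a highest of 12.4 in mesoderm. This site also held H3K4me3 in WT mesoderm, with a highest fold of 5.94. Another site there, chr18:37835766-37836797, had folds of 9.44 in WT endoderm, 10.7 in WT mesoderm and 6.4 in arid4b-delta mesoderm, and no peak in arid4b-delta endoderm. In arid4b-delta endoderm there were instead 5 sites in Pcdha, 6 in Pcdhb and 1 before Pcdhg (chr18:37630234-37631320, fold 11.9) that no other list had. The highest fold at each of those in Pcdha and Pcdhb was 4.44 to 6.8. The gene table gives no strand, exons or enhancers, so these sites are known by position only, and none is within 1000 bp of a gene end of the 57. The arid4b-delta endoderm list is the longest of all. Of its 19 region peaks 15 overlapped no WT peak, beside 73.0% of that whole list, and 4 of 7 in mesoderm, beside 59.4%. Of the WT peaks, 6 of 10 in endoderm and 7 of 10 in mesoderm overlapped none of arid4b-delta, beside 29.2% and 26.8%. In lists of equal length the arid4b-delta endoderm list kept 5 H3K27ac peaks in the region and the arid4b-delta mesoderm list kept 2, beside 10 in WT of either lineage. Of these, 2 of 5 and 1 of 2 overlapped no WT peak, beside 49.0% and 42.4%. In WT the counts were then 7 and 9 of 10, beside 44.1% and 40.7%.

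**Figure D4:**
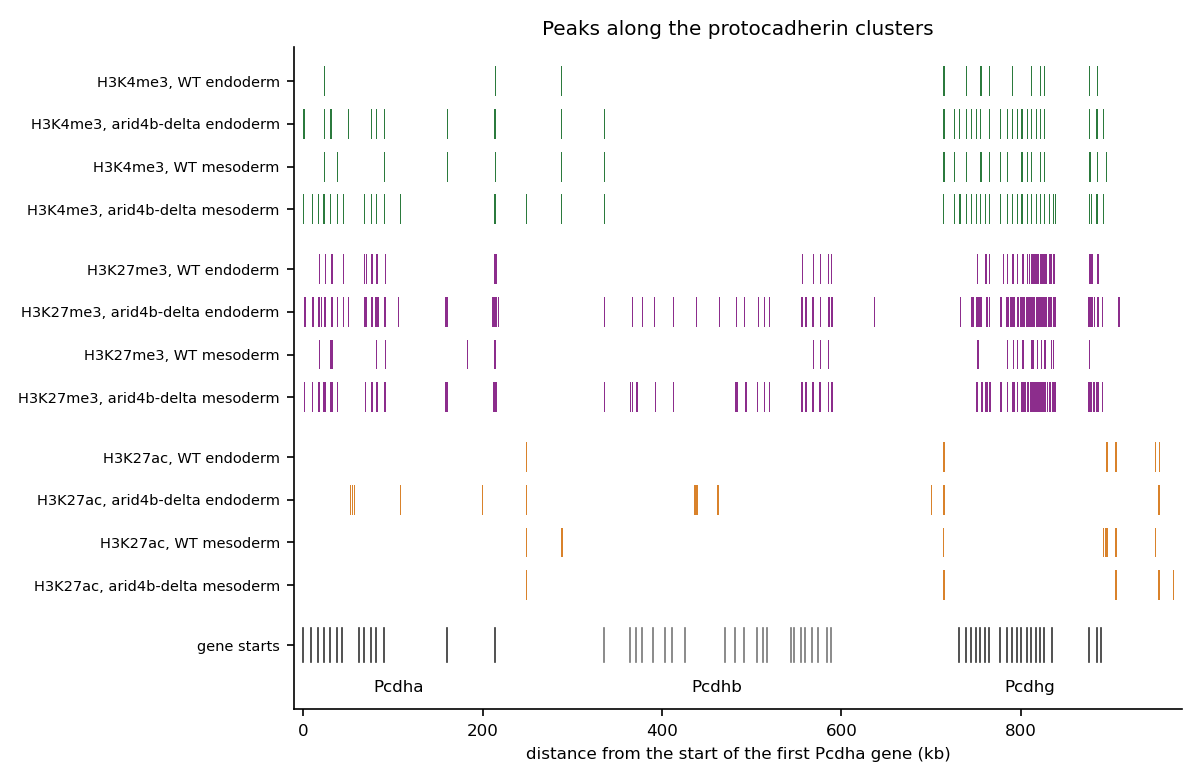
Peaks of the 12 lists are drawn along the clusters in kb from the start of the first Pcdha gene, with a least drawn width of 1.2 kb, above the gene starts of the 3 groups. Most H3K4me3 peaks lie at gene starts of Pcdha and Pcdhg, and few lie in Pcdhb. H3K27me3 peaks lie both at and away from gene ends, with the blocks densest over Pcdhg, and H3K27ac lies away from gene ends.

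Most H3K4me3 peaks of the region were at the genes' starts: 12 of 15 in WT endoderm, 28 of 34 in arid4b-delta endoderm, 20 of 27 in WT mesoderm and 36 of 45 in arid4b-delta mesoderm. All 15 WT endoderm peaks overlapped an arid4b-delta peak, while 20 of the 34 arid4b-delta peaks overlapped no WT peak. Of all H3K4me3 peaks of those lists, 1.93% in WT and 34.6% in arid4b-delta had no partner. In mesoderm 4 of 27 WT peaks and 24 of 45 arid4b-delta peaks had none, beside 2.39% and 34.1%. At equal length the region counts were 0 of 15 and 18 of 32 in endoderm, beside 2.99% and 27.1%, and 6 of 27 and 16 of 35 in mesoderm, beside 4.38% and 21.4%. For H3K27me3, 2 of 35 WT peaks and 42 of 69 arid4b-delta peaks had none in endoderm, beside 46.1% and 69.9% of all peaks, and 1 of 23 and 37 of 55 in mesoderm, beside 31.4% and 69.2%. The arid4b-delta H3K27me3 peaks of the region were thus no more often without a WT partner than those of the whole list in full lists. For H3K4me3 they were more often without one. At equal length the H3K27me3 counts were 19 of 35 and 32 of 45 in endoderm, beside 63.7% and 68.3%, and 12 of 23 and 25 of 36 in mesoderm, beside 50.5% and 66.5%. Away from the 57 genes, H3K4me3 was in all 4 lists between Pcdha and Pcdhb (chr18:37217474-37218409; folds 10.1, 12, 6.5 and 11.8) and at Taf7, a general transcription factor gene between Pcdhb and Pcdhg, which also had H3K27ac in all 4. A site before Pcdhga1, chr18:37655612-37656239, had H3K4me3 at 14.2 in arid4b-delta of both lineages, 3.85 in WT mesoderm and none in WT endoderm. These sites lie within long read-through gene models that were not counted among the 57 genes.

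Other genes give the setting. Of 12 non-clustered protocadherins, which stand alone and have their own full gene, H3K4me3 marked 7 in WT and 9 in arid4b-delta in endoderm, and 7 and 10 in mesoderm. Those in arid4b-delta only were Pcdh15 and Pcdh11x in both lineages and Pcdh20 in mesoderm. H3K27me3 marked 7 and 7 in endoderm, with Pcdh8 and Pcdh9 in arid4b-delta only and Pcdh15 and Pcdh1 in WT only. In mesoderm it marked 3 and 7, with Pcdh7, Pcdh17, Pcdh11x and Pcdh19 in arid4b-delta only. Of the 30 other coding genes within 500 kb of the clusters, H3K4me3 marked 21 in WT and 23 in arid4b-delta in either lineage, Cd14 being in arid4b-delta only in both, with Arap3 in endoderm and Dnd1 in mesoderm. H3K27me3 marked 3 and 3 of them in endoderm (Wdr55 in arid4b-delta only, Pcdh1 in WT only), and 2 and 4 in mesoderm (Hbegf and Fchsd1 in arid4b-delta only). H3K27ac marked 13 and 13 in endoderm and 11 and 13 in mesoderm, with Gnpda1 in arid4b-delta only in both, Pcdh1 in arid4b-delta only in mesoderm and Wdr55 in WT only in endoderm. Of 14 genes that act on the clusters, such as Ctcf, the cohesin genes Smc1a, Smc3 and Stag2, Smchd1, Setdb1, Rest and Dnmt3b, H3K4me3 marked 9 in every list and the 9 were the same. H3K27me3 was in WT endoderm only at Smc3 and in arid4b-delta endoderm only at Setdb1, and H3K27ac at Dnmt3b was absent from WT endoderm alone. Of 10 intracellular partners of protocadherins, the kinase gene Ptk2b lacked H3K4me3 in WT mesoderm alone and had H3K27me3 there alone. H3K27ac was absent at Nckap1 from WT endoderm alone, and present at Fyn, a kinase gene, in WT mesoderm alone. These counts are from full lists. In lists of equal length H3K27me3 of the non-clustered protocadherins was in WT only at 4 and arid4b-delta only at 2 in endoderm. In mesoderm those counts were 1 and 3. For the 14 genes that act on the clusters, the arid4b-delta-only counts of H3K27me3 and H3K27ac in endoderm were then 0. Of the 30 neighbours H3K27me3 was in WT only at 3 and arid4b-delta only at 1 in endoderm.

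Markers of the labelled cell types were checked in the same lists. H3K27ac was at 0 of 4 endoderm genes (Sox17, Foxa2, Gata4 and Gata6) in all 4 lists, so defining endoderm genes were without this mark in the libraries labelled endoderm. H3K4me3 was at 2 of the 4 in WT endoderm and 3 in the others, with Sox17 in arid4b-delta only in endoderm. H3K27me3 was at 3 or 4 of them, Gata4 having it in arid4b-delta endoderm only. Of 4 mesoderm genes (T, Mesp1, Kdr and Tbx6) H3K27ac marked T and Tbx6 in WT mesoderm and none in the other lists, Mesp1 had H3K4me3 in arid4b-delta only in endoderm, and H3K27me3 was at Tbx6 in WT endoderm alone and at T in all lists but WT mesoderm. Of 4 pluripotency genes H3K27ac marked 3 in WT endoderm, 2 in arid4b-delta endoderm, 2 in WT mesoderm and 3 in arid4b-delta mesoderm. Sox2 and Pou5f1 were in every list, and Nanog had H3K27ac in WT only in endoderm and in arid4b-delta only in mesoderm. H3K4me3 was in arid4b-delta only at Zfp42 in both lineages and at Nanog in mesoderm, and H3K27me3 was at Sox2 in all lists but arid4b-delta mesoderm. Of 7 neural genes H3K27ac marked Nes in arid4b-delta mesoderm and none elsewhere, H3K4me3 was absent at Pax6 from WT endoderm alone, and H3K27me3 at Nes from WT mesoderm alone. These marker counts are from full lists. In lists of equal length several arid4b-delta-only counts were 0. These were H3K27ac and H3K27me3 of the neural genes in mesoderm, and H3K27me3 of the mesoderm genes in mesoderm and of the endoderm genes in endoderm. The arid4b-delta-only counts of H3K4me3 were the same as in full lists. The part of these differences in cell state, and of near-identical sequence between neighbouring protocadherins, in the counts above was not tested.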

How the data were processed

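NEBNext reagents were used for the ChIP libraries of CJ9 cells and a HiSeq2000 for sequencing, per the labels' protocols. The authors used Bowtie2, Picard and MACS2 with build mm10, per the submitters' processing notes, and versions, settings and the handling of reads that map to several places are not given in the sources used here. Peaks came per library, narrow for H3K4me3 and H3K27ac and broad for H3K27me3. Each deposited list gives a score, the authors' fold enrichment (a ratio over background), a -log10 p and a -log10 q per peak, and in narrow lists a summit position in bp. Of these the fold, the -log10 q and the summit were used. Narrow lists reached down to a deposited -log10 q of 2.0 and broad ones to 0.31. Of the 16 samples, the 4 input libraries were not analysed here.

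A RefSeq table of GRCm38.p6 gave the 21887 protein-coding genes (autosomes and sex chromosomes) to which peaks were joined. That assembly is mm10, and the table gives gene ends without strand or exons. The count was checked on simulated peaks. Python 3.11.15 with pandas 2.3.3 and scipy 1.17.1 was used. Lists of equal length keep the highest folds, with ties broken by -log10 q. Sites join peaks within 500 bp. Depth is unknown, and no test could be made from 1 library per group. The 57 genes, the comparison lists and the alternatives were chosen with earlier results of these data known. Named genes are the C-type genes, those marked in 1 genotype only, the highest fold per group and list, and genes of the comparison lists marked in 1 genotype only, and others were named after their values were seen. The alternatives were other ways to cut the lists, other windows, and stricter peaks, and 2 more were added after the data were seen: the first 2500 bp of each gene, and cutting lists by peak length.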

Additional observations from a re-analysis of the deposited data

Results flagged for a closer look

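The number of H3K27ac peaks in the protocadherin region pointed opposite ways in the 2 lineages. The arid4b-delta minus WT difference was 9 in endoderm, from 10 peaks to 19, and -3 in mesoderm, from 10 to 7. With 1 library per group the difference between lineages was not tested. In lists of equal length the arid4b-delta counts were 5 and 2, below WT in both lineages. None of these peaks was within 1000 bp of an end of the 57 genes.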

How the results depend on the processing

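No paired analysis was possible because each group has 1 library. A count is given here where it moved by more than 1.5 times, and a difference where it changed sign. Cuts and stricter limits leave fewer peaks by construction. Apart from that the cause was not tested. Depth is unknown and limits what a missing peak means. H3K27ac was at 0 of the 57 genes in all 4 lists under each alternative run.

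For H3K4me3, lists of equal length moved the WT-only genes of mesoderm from 1 to 3 by fold, by -log10 q and with all 4 lists cut, and to 2 with the longest peaks kept. The last ranking was added after the data were seen, and gave 0 genes in WT endoderm only, from 1. With 4 lists cut, arid4b-delta endoderm only went from 1 to 4.

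For H3K27me3 the genes in WT only went from 1 to 10 in endoderm and from 0 to 6 in mesoderm by fold and by -log10 q, to 14 and 6 with 4 lists cut, and to 3 and 1 with the longest peaks kept. With 4 lists cut, endoderm had 12 genes in arid4b-delta only and 14 marked in arid4b-delta, so that the difference between genotypes over all genes turned to -2. Ranked by -log10 q, mesoderm had 19 genes in arid4b-delta only and 26 marked in arid4b-delta. The arid4b-delta minus WT difference in Pcdhg turned in endoderm to -4 by fold, -3 by -log10 q, -8 with 4 lists cut and -2 in the upper 50% of peaks. In mesoderm it turned to -1 by -log10 q and -2 in the upper 50%.

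Between lineages, H3K27me3 in WT mesoderm only went from 0 to 5 genes by fold, by -log10 q and with 4 lists cut, and to 1 with the longest peaks kept. In arid4b-delta mesoderm only it went from 3 to 17, 19, 20 and 8 in that order. The mesoderm minus endoderm difference over all genes in arid4b-delta turned from -4 to 11, 13, 14 and 3. In Pcdha of arid4b-delta it turned to 1 by -log10 q, 3 with 4 lists cut, 3 with the longest peaks kept and 1 with peaks of at least 500 bp. In Pcdhb of arid4b-delta it turned to 2 by fold, 4 by -log10 q, 5 with 4 lists cut, 1 with a 2500 bp window, 2 with the start end only and 1 with a -log10 q of at least 2. In Pcdha of WT it turned to 1 by -log10 q and 1 in the upper 50%.

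Region peaks that no peak of the other genotype overlapped went, for H3K27me3 in WT endoderm, from 2 to 19 by fold, 18 by -log10 q and 20 with 4 lists cut. In WT mesoderm they went from 1 to 12 under those 3 cuts and to 2 with the longest peaks kept. In arid4b-delta endoderm they went from 42 to 18 with 4 lists cut and 23 with the longest peaks kept. For H3K27ac in arid4b-delta they went from 15 to 2, 2, 3 and 5 in endoderm (fold, -log10 q, 4 lists, longest) and from 4 to 1 in mesoderm under each of the 4.

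Starts with both H3K4me3 and H3K27me3 were recomputed after the data were seen. In arid4b-delta endoderm they went from 26 to 15 by fold, 14 by -log10 q, 7 with 4 lists cut, 1 in the upper 50%, 5 with peaks of at least 500 bp and 11 with a -log10 q of at least 2. In arid4b-delta mesoderm they went from 28 to 13, 14, 13, 2, 12 and 15 in that order. In WT they went from 8 in endoderm and 7 in mesoderm to 0 and 0 in the upper 50%, 1 and 1 with peaks of at least 500 bp, and 1 and 1 with a -log10 q of at least 2.

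Keeping the upper 50% of each list left H3K4me3 at 1, 3, 1 and 3 genes (WT endoderm, arid4b-delta endoderm, WT mesoderm, arid4b-delta mesoderm). There were 2 in arid4b-delta only in either lineage, 0 in WT only in mesoderm, 0 in WT endoderm only, 0 in WT mesoderm only and 1 in arid4b-delta mesoderm only. H3K27me3 marked 12 and 22 genes in endoderm and 16 in arid4b-delta mesoderm, with 14 in arid4b-delta only in mesoderm and 9 and 7 in WT only. It marked 6 genes in endoderm only and 3 in mesoderm only in WT, and 15 and 9 in arid4b-delta. Unpartnered H3K4me3 peaks were 3 (arid4b-delta endoderm), 0 (WT mesoderm) and 4 (arid4b-delta mesoderm). Those of H3K27me3 were 14 and 27 in endoderm and 12 and 21 in mesoderm, and those of H3K27ac 2, 4, 3 and 1.

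Peaks of at least 500 bp left H3K4me3 at 1, 5, 3 and 12 genes, with 4 and 9 in arid4b-delta only, 0 in WT only in mesoderm, 0 in WT endoderm only, 2 in WT mesoderm only and 0 in arid4b-delta endoderm only. H3K27me3 marked 7 in WT mesoderm, with 5 in arid4b-delta mesoderm only. Unpartnered H3K4me3 peaks were then 6 (arid4b-delta endoderm), 0 (WT mesoderm) and 13 (arid4b-delta mesoderm), those of H3K27me3 in WT 1 and 0, and those of H3K27ac 1, 1, 3 and 0.

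A -log10 q of at least 2 left H3K27me3 at 8, 22, 1 and 22 genes, with 4 and 1 in WT only, 1 in WT mesoderm only, and 14 and 14 in arid4b-delta endoderm and mesoderm only. Unpartnered peaks were 7 and 26 in endoderm and 2 in WT mesoderm. With a 500 bp window, H3K27me3 was in WT only at 0 genes in endoderm and in arid4b-delta mesoderm only at 5. With 2500 bp it was at 20 genes in WT mesoderm, in WT mesoderm only at 1 and in WT only in endoderm at 0. With the start end only, arid4b-delta mesoderm only held 7 genes. Over the first 2500 bp, also added after the data were seen, 0 genes were in WT only in endoderm, 4 in arid4b-delta endoderm only and 1 in arid4b-delta mesoderm only. Where 50% of a peak had to be covered, 37 H3K4me3 peaks of arid4b-delta mesoderm had no partner, and with partners within 1000 bp 0 H3K27me3 peaks of WT endoderm had none.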
